A study of Rattus norvegicus with 10 samples.

Results

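The remaining IGHV5 genes are the members of the IGHV5 subgroup that are left when IGHV5-7, IGHV5-20, IGHV5-22, IGHV5-29, IGHV5-31, IGHV5-35, IGHV5-36, IGHV5-43, IGHV5-54, IGHV5-62 and IGHV5S11 are set apart. A productive read was assigned to them when the first gene in its annotation was any other IGHV5 or IGHV5S gene. This gave 16 genes of the 141 IGHV genes named in the files and 477088 of 1615896 productive reads (29.5%). The remaining IGHV5 genes were measured in the spleen cells of 10 Wistar rats, which the study describes as littermates. Of these, 5 rats (HuD1 to HuD5) were immunized with recombinant human HuD, a neuronal RNA-binding protein, and 5 rats (DNP1 to DNP5) with keyhole limpet hemocyanin carrying dinitrophenyl groups (DNP-KLH). All rats received the antigen in complete Freund's adjuvant and then 3 boosts in incomplete adjuvant. The age of the rats is not given in the labels. Each animal gave 1 library of heavy chain variable domains, with cDNA primed from the heavy chain constant domains, and the 10 libraries shared 1 sequencing run.

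An IGHV gene encodes most of the variable domain of an antibody heavy chain, namely the framework regions FR1 to FR3 and the antigen-binding loops CDR1 and CDR2 between them. During B cell development it is joined to a D and an IGHJ gene, and the joint forms CDR3, the most variable loop. After contact with antigen, B cells divide into clones and mutate the joined gene. In spleen, transcripts of resting B cells, responding B cells and plasma cells are found together, and a higher share of reads from more cells cannot be told apart from more transcript per cell.

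The libraries held 60647 to 259834 productive reads, where a read is a sequence collapsed over the copies of 1 molecular tag. DNP3 was the smallest library. The tag was a Unique Molecular Identifier (UMI) with a section of CDR3 added, since the study found the UMI too short. Whether these tags sufficed for large clones was not tested. Counting error was small beside the spread between animals, as the widest 95% binomial (exact Clopper-Pearson) interval of the share of a gene in an animal, that of IGHV5S10 in DNP5, ran from 9.47% to 9.85%. A sequence with 0 reads can still hold up to 0.00495% of the productive reads of DNP3 and up to 0.00115% of those of DNP4, and these limits cover counting error only.

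The V segments, which run from FR1 to FR3, show how alike these genes are. For each gene the leading segment was the amino acid segment read most often, among reads that name a single gene, since near-identical members share reads. Each leading segment was 96 residues long, and positions are counted from 1 at its first residue, with the residue of the gene or segment named first before the position and that of the other after it. IGHV5-25 was the most abundant gene, and several members were close to it. IGHV5S13 and IGHV5S14 differed only by A40T, between CDR1 and CDR2. IGHV5-25 and IGHV5S23 differed by M18L in FR1 and Y33D at the end of CDR1, and IGHV5-25 and IGHV5-27 by M18L, S50Y and N57S. In this group 47.0% of the reads assigned to IGHV5-25 also name another gene, most often IGHV5-27 alone (16.4% of its reads), IGHV5-27 with IGHV5S23 (11.5%) or IGHV5S23 alone (9.04%). The annotation lists IGHV5S23 after other genes, so that 0% of the reads assigned to it name another gene. The share of IGHV5-25 thus holds reads that may come from IGHV5-27 or IGHV5S23. Likewise 13.4% of the reads of IGHV5S13 also name IGHV5S14 and no further gene.

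IGHV5-17 and IGHV5S10 differed by A33N in CDR1 and S57R in CDR2, and 25.3% of the reads of IGHV5-17 also name IGHV5S10 and no further gene. Over all pairs of the 11 genes with at least 1000 reads, the identity ranged from 80.2% to 99.0%, with a median of 89.6%. Few reads carried the exact leading segment. In these 11 genes the share of exact reads was highest for IGHV5S14 (13.5%) and lowest for IGHV5S13 (2.04%), and a read differed from the segment of its gene at 5.81 to 9.06 residues on average, depending on the gene, as a mean over animals. The differences were denser in the loops, where 13.2% to 25.2% of the residues of CDR1 and CDR2 differed, against 3.89% to 7.61% of the framework residues. A difference can be a mutation, another form of the gene or a sequencing error, and these were not separated.

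V segments that were joined to many different CDR3 sequences divided the animals in part otherwise than the labels do. A common V segment was defined as an exact segment found with at least 20 different CDR3 sequences in each of at least 2 animals, and the remaining IGHV5 genes had 32 of them. Of these, 14 segments from 9 genes reached this number in HuD animals and, among the DNP animals, in DNP2 only. They had 10864 reads in all, of which 45 were in DNP1, DNP3, DNP4 and DNP5, and 8 of the 14 had no read there. In the opposite direction, 6 segments from 5 genes reached it in DNP animals only, and DNP2 was not among these animals for any of them. They had 2526 reads, of which 19 were in DNP2 and the HuD animals. A further 6 segments reached 20 CDR3 sequences in HuD animals only, and 6 did so in HuD animals and at least 1 of DNP1, DNP3, DNP4 and DNP5. Over all IGHV genes, 29 of 108 common segments were found in HuD animals and, of the DNP animals, in DNP2 only, and 15 in DNP animals only, of which 0 included DNP2. The largest class over all IGHV genes, with 37 segments, was found in HuD animals only, and 27 were found in HuD animals and at least 1 of the other 4 DNP animals.

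**Figure D1:**
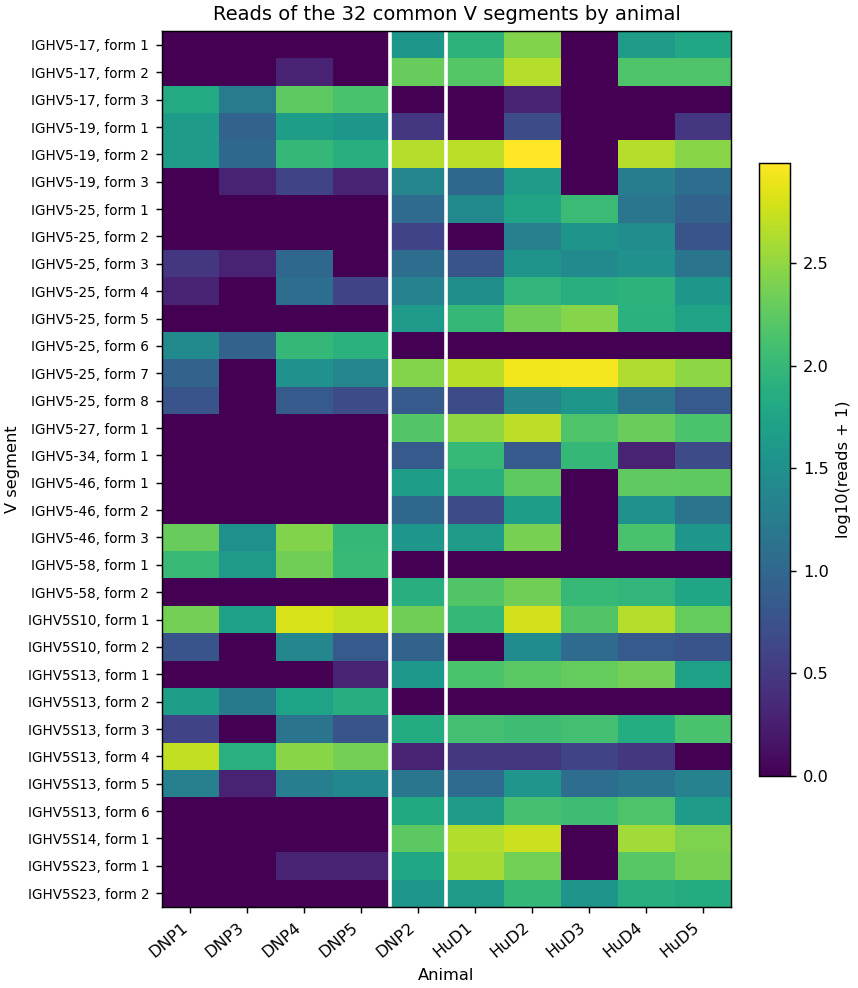
Reads of the 32 common V segments (rows, grouped by gene, with the forms of a gene numbered in alphabetical order of their residues) in the 10 animals (columns), with colour for log10(reads + 1). DNP2 is set between the other 4 DNP animals and the HuD animals, and 14 segments have 45 of their 10864 reads in DNP1, DNP3, DNP4 and DNP5.

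IGHV5-58 shows this division with a single residue. Its leading segment was read 75 times in DNP2 and 149, 220, 99, 91 and 56 times in HuD1 to HuD5, and 0 times in the other 4 DNP animals. A segment that differs from it by S49A was read 102, 41, 219 and 105 times in DNP1, DNP3, DNP4 and DNP5 and 0 times in DNP2 and in the HuD animals. These segments did not occur together in any animal. In IGHV5-17 a segment with I52S and S57R had 66, 16, 176 and 135 reads in DNP1, DNP3, DNP4 and DNP5 and 1 read in the other 6 animals, while the leading segment had 1 read in the former 4 animals, 194 reads in DNP2 and 144 to 457 reads in 4 of the HuD animals. The leading segment of IGHV5-27 had 0 reads in DNP1, DNP3, DNP4 and DNP5, 154 reads in DNP2 and 140 to 495 reads in the HuD animals. IGHV5S10 differed from these genes, because its leading segment was common in all 10 animals, with 51 to 638 reads.

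IGHV5S13 was carried by different segments in these sets of animals. Its leading segment had 518, 79, 288 and 230 reads in DNP1, DNP3, DNP4 and DNP5 and at most 3 reads in any other animal. A segment with G33D and V48I had 38 reads in DNP2, 139, 165, 192, 232 and 50 reads in HuD1 to HuD5, and 1 read in the other 4 DNP animals together. A segment with F29Y, G33V and Q79L had 64 reads in DNP2, 44 to 144 reads in the HuD animals and 0 reads elsewhere. In IGHV5-25 a segment with S25L had 41 reads in DNP2, 52 to 278 reads in the HuD animals and 0 reads elsewhere, whereas a segment with Y32S, Y33D, G54S and N57S had 25, 8, 96 and 81 reads in DNP1, DNP3, DNP4 and DNP5 and 0 reads in the other 6 animals.

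HuD3 lacked segments that the other HuD animals carried. In 9 of the 32 common segments, from 5 genes, HuD3 had 0 reads while each of the other 4 HuD animals had reads. These genes were IGHV5-17, IGHV5-19, IGHV5-46, IGHV5S14 and IGHV5S23. Whether the segments are germline sequences was not tested, since no germline reference was used. In 9 of the 10 animals the antigen and these V segments went together, so that an effect of the antigen on these genes cannot be told apart from a difference in the V segments the animals carry. DNP2 goes with the HuD animals in these segments and with the DNP animals in its label. Comparisons between the antigens are therefore given with and without DNP2.

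DNP2 shared clones with animals of both groups. A clone is a different combination of IGHV gene and CDR3 amino acid sequence in an animal, and the remaining IGHV5 genes had 136456 clones. DNP2 had 30, 8, 36 and 58 gene and CDR3 combinations in common with DNP1, DNP3, DNP4 and DNP5, and 48, 52, 39, 33 and 49 with HuD1 to HuD5. These were 0.0741% to 0.537% of the combinations of DNP2 and 0.153% to 0.585% of those of the other animal. By comparison, pairs among DNP1, DNP3, DNP4 and DNP5 shared 33 to 129 combinations, and pairs of HuD animals 65 to 138. By count the highest were DNP1 with DNP4 (1.10% and 0.547%) and HuD2 with HuD4 (0.567% and 0.960%). As a percentage of 1 animal the highest was DNP3 with DNP4, with 99 combinations (4.10% of those of DNP3 and 0.420% of those of DNP4). DNP3 had the fewest clones (2417). Pairs of DNP1, DNP3, DNP4 or DNP5 with a HuD animal shared 2 to 52. These counts were not scaled to the number of clones.

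The remaining IGHV5 genes took 26.1% ± 10.2 (SD, n = 5) of the productive reads in the DNP animals and 31.1% ± 4.12 (n = 5) in the HuD animals. The shares were 30.3%, 22.5%, 10.7%, 29.1% and 38.0% in DNP1 to DNP5 and 38.0%, 31.5%, 28.9%, 29.2% and 27.8% in HuD1 to HuD5. The groups overlapped, and DNP3 was the lowest animal. Without DNP2 the share in the DNP animals was 27.0% ± 11.6 (n = 4). Among their reads, IGHV5-25 took 32.9%, IGHV5S13 14.8% and IGHV5S10 10.9%, and 10 genes had a mean share of productive reads between 0.765% and 9.27%. The order of the genes below IGHV5-25 is not firm. IGHV5S13 (4.36% ± 1.83, SD, n = 10) and IGHV5S10 (3.36% ± 2.49) differed by less than their spread between animals, and IGHV5S10 was the higher one in DNP3 and DNP5. Likewise IGHV5-19 (mean of 2.21%), IGHV5-58 (1.98% ± 1.30, SD, n = 10), IGHV5-17 (1.96% ± 1.06) and IGHV5-27 (1.78% ± 0.879) differed by less than their spread between animals.

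**Figure D2:**
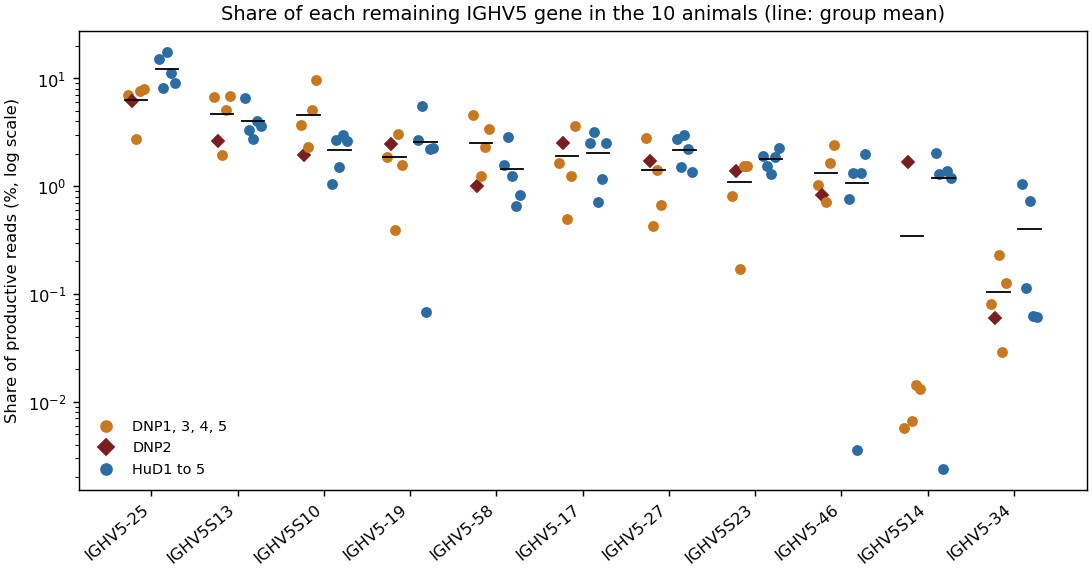
Share of productive reads (percent, log axis) of the 11 remaining IGHV5 genes with at least 1000 reads, with 1 point per animal and a line at the mean of each group. The shares of IGHV5-25 in the HuD animals lie above those in the DNP animals, and IGHV5S14 is at 1.68% in DNP2 and at most 0.0142% in the other DNP animals.

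IGHV5-25 was the only tested member whose shares did not overlap between the antigens with all animals. Its shares were 7.03%, 6.23%, 2.76%, 7.61% and 8.02% in DNP1 to DNP5, with a mean of 6.33% ± 2.11 (SD, n = 5). In HuD1 to HuD5 they were 15.1%, 8.08%, 17.6%, 11.2% and 9.05%, with a mean of 12.2% ± 4.04 (n = 5). The highest DNP animal (8.02%) and the lowest HuD animal (8.08%) were close to each other. Shares without overlap were found for 5 of the 81 tested IGHV genes (6.17%), with 4.94% higher in HuD, and for 1 of the 13 tested members. The log2 fold change of HuD over DNP was 0.96 (SE 0.45), with an adjusted p of 0.219 in edgeR's quasi-likelihood test, so that the difference did not pass the threshold of 0.05. Without DNP2 the log2 fold change was 0.84 (adjusted p = 0.142), and without HuD3 it was 0.42 (adjusted p = 0.444). With clones in place of reads it was 0.36, and with reads that name a single gene it was 1.67 (adjusted p = 0.119).

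In the usage test, 0 of the 13 members with at least 100 reads passed the threshold, where 2.47% of the 81 tested genes did. At an unadjusted p under 0.05 there were 2 members, IGHV5-41 and IGHV5S10, against 23.5% of all tested genes. DESeq2 called 1 member, IGHV5-41, and 17.3% of all tested genes, and limma on log2 RPM called 0 members and 19.8%. The median log2 fold change was −0.19 over the 13 members and 0.13 over all 81 genes. Without DNP2, edgeR called 3 of the 13 members, where 37% of all tested genes were called. These were IGHV5S14, IGHV5S10 and IGHV5-41. DNP2 was set apart by V segments of these same data, the leading segment of IGHV5S14 among them. Under the same setting shares without overlap were found for 2 of the 13 members, IGHV5-25 and IGHV5-41, and for 29.6% of all tested genes.

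**Figure D3:**
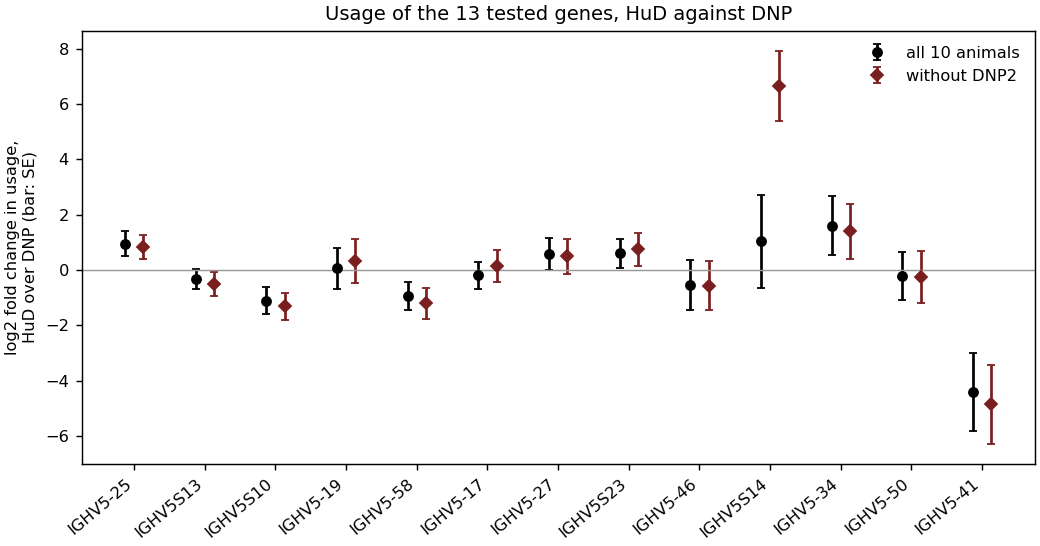
Log2 fold change in usage, HuD over DNP, of the 13 tested genes, with the standard error as the bar, for all 10 animals (circles) and without DNP2 (diamonds). IGHV5S14 is at 1.04 with all animals and at 6.64 without DNP2.

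Under IGHV5S13 were counted 9459 reads that name IGHV5S13 and IGHV5S14 and no further gene, and their number in each animal is not given. Among the reads assigned to it, IGHV5S14 was either well represented or nearly absent. It had 2077 reads in DNP2 and 3151, 2943, 2572 and 2493 reads in HuD1, HuD2, HuD4 and HuD5. In DNP1, DNP3, DNP4, DNP5 and HuD3 it had 8, 4, 37, 12 and 4 reads. Its leading segment was read 172 times in DNP2 and 440, 557, 372 and 255 times in HuD1, HuD2, HuD4 and HuD5, and 0 times in the other 5 animals, so that the few reads there came from other segments. The 35 single-gene reads of DNP4 differed from the leading segment at 14.1 residues on average, against 3.27 to 4.76 residues in the 5 animals that carried it. The log2 fold change of HuD over DNP was 1.04 (SE 1.68, adjusted p = 0.691 in edgeR) with all animals. It was 6.64 (SE 1.27, adjusted p = 0.000483 in edgeR) without DNP2, although HuD3 was as low as the other DNP animals. The shares still overlapped through HuD3. DNP2 was set apart by its V segments in these same data, and the leading segment of IGHV5S14 was among them. The p-value without DNP2 is therefore not an independent test of this gene.

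The highest shares of IGHV5S10 were those of DNP5 and DNP4. Its shares were 3.68%, 1.97%, 2.30%, 5.08% and 9.66% in DNP1 to DNP5 and 1.04%, 2.70%, 1.51%, 2.98% and 2.64% in HuD1 to HuD5. DNP5 was far above all HuD animals, while DNP2 and DNP3 lay within their range. The log2 fold change was −1.10 (SE 0.48, adjusted p = 0.195 in edgeR) with all animals and −1.30 (adjusted p = 0.0480) without DNP2. IGHV5-58 ranged from 0.994% to 4.61% in the DNP animals and from 0.649% to 2.89% in the HuD animals, with a log2 fold change of −0.94 (adjusted p = 0.271), and −1.20 (adjusted p = 0.107) without DNP2.

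IGHV5-19 and IGHV5-46 were low in HuD3. IGHV5-19 had 114 reads in HuD3 (0.0678%) against 4110 to 12333 reads in the other HuD animals, and 239 to 8005 reads in the DNP animals. None of the 33 single-gene reads of HuD3 carried its leading segment, and they differed from it at 12.0 residues on average, against 7.40 at most in the other 9 animals. IGHV5-46 had 6 reads in HuD3 and 1187 to 4085 reads in the other HuD animals. The fold changes of both genes did not pass the threshold (log2 fold change 0.058 with adjusted p = 0.961, and −0.55 with adjusted p = 0.691, in edgeR), and without DNP2 they were 0.33 (adjusted p = 0.732) and −0.56 (adjusted p = 0.636). IGHV5S13, IGHV5-17, IGHV5-27 and IGHV5S23 were read in all animals, with log2 fold changes of −0.32, −0.19, 0.59 and 0.61 and adjusted p-values of 0.514 to 0.817 in edgeR. Without DNP2 these were −0.49, 0.16, 0.49 and 0.75, with adjusted p-values of 0.399 to 0.798. The sign of IGHV5-17, IGHV5-19 and IGHV5-50 turned with other scalings.

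The rare members were unevenly spread. IGHV5-34 is a pseudogene (P) in the germline annotation of the files, yet 3871 of its reads were productive and 171 were not (94.5% productive with reads of unknown functionality counted). It had 1631 reads in HuD1, 1228 in HuD3, 257 in HuD2 and 74 to 139 reads in each of the other 7 animals, and a log2 fold change of 1.60 (SE 1.07, adjusted p = 0.406 in edgeR), which was 1.41 (adjusted p = 0.341) without DNP2. Its reads in DNP1, DNP3, DNP4 and DNP5 differed from its leading segment at 12.9 to 14.7 residues on average, and those of DNP2 and the HuD animals at 4.81 to 7.54. The leading segment had 0 reads in those 4 DNP animals. IGHV5-41, also annotated as a pseudogene, had 62 and 29 reads in DNP1 and DNP5, 6 in DNP4, 1 each in DNP2 and DNP3, and 2, 2, 2, 0 and 0 in HuD1 to HuD5. In DNP1, 37 of these 62 reads shared the CDR3 VRGSLDH, and 22 the CDR3 VSGSLDH. The fitted log2 fold change was −4.40 (adjusted p = 0.153 in edgeR), and −4.85 (adjusted p = 0.0138) without DNP2. IGHV5-50 had 10 to 66 reads per animal, with 37.6% of its reads also naming IGHV5-54 and no further gene, and a log2 fold change of −0.23 (adjusted p = 0.873), and −0.27 (adjusted p = 0.798) without DNP2. IGHV5-23, IGHV5S47 and IGHV5-11 had 47, 7 and 1 productive reads and were not tested, and all 7 reads of IGHV5S47 also name IGHV5S8.

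Clones of the remaining IGHV5 genes had fewer reads on average than those of the other genes. In each animal, reads per clone were 3.55 ± 0.905 (SD, n = 10) for the remaining IGHV5 genes, 4.75 ± 1.56 for the 11 other IGHV5 genes and 5.37 ± 1.17 for the other IGHV subgroups. The remaining IGHV5 genes were the lower ones in 10 of 10 animals against either set. Clones of a single read were similar in part, at 73.0%, 72.3% and 71.3% of the clones of these sets, in the same order (means, n = 10). The 100 largest clones held 32.8%, 38.5% and 48.1% of the reads. A CDR3 whose reads were assigned to several genes counts as several smaller clones. Reads that name several genes were 23.3% in the remaining IGHV5 genes, 12.7% in the 11 other IGHV5 genes and 7.02% in the other subgroups (means, n = 10). The part of such splitting in the difference between these sets was not tested. Reads per clone of a gene were then compared with those of all other IGHV genes of the same animal, for the 42 genes with at least 10 clones in each animal. Of the 9 members tested, 8 passed the threshold with fewer reads per clone (limma, adjusted p from 2.92e-05 to 0.0387), where 61.9% of the 42 genes were lower, 7.14% higher and 69% called in either direction (76.2% at an unadjusted p under 0.05). The medians of this log2 difference were −0.57 over the 9 members and −0.45 over the 42 genes.

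**Figure D4:**
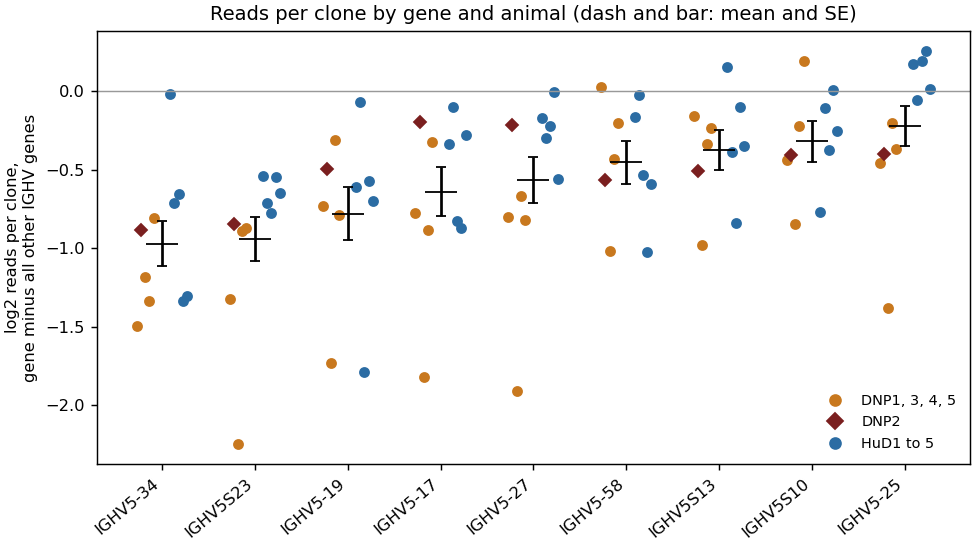
Log2 reads per clone of a gene minus that of all other IGHV genes in the same animal, for the 9 tested members, with 1 point per animal and the mean with its standard error in black. IGHV5-34 and IGHV5S23 are the lowest with means of −0.97 and −0.94, and IGHV5-25 is at −0.22.

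The differences were largest for IGHV5-34 (−0.97, SE 0.14, lower in 10 of 10 animals) and IGHV5S23 (−0.94, SE 0.14, lower in 10 of 10 animals). IGHV5S23 had 1.33 to 2.31 reads per clone in the DNP animals and 2.04 to 4.23 in the HuD animals. IGHV5-19 (−0.78), IGHV5-17 (−0.64), IGHV5-27 (−0.57), IGHV5-58 (−0.45), IGHV5S13 (−0.37) and IGHV5S10 (−0.32) followed. The call of IGHV5S10 was lost when any of DNP1, DNP2, DNP3, DNP4, HuD1, HuD3 or HuD5 was left out (adjusted p up to 0.0917), and that of IGHV5S13 without HuD3 (adjusted p = 0.0556). IGHV5-25 did not pass the threshold (−0.22, SE 0.13, adjusted p = 0.118 in limma), and its value was −0.49 (adjusted p = 0.00882) with reads that name a single gene.

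Between the antigens, 0 of the 9 members passed the threshold for reads per clone in limma, where 11.9% of the 42 genes did (7.14% lower), and 2 members had an unadjusted p under 0.05, against 26.2% of the 42 genes. IGHV5-25 had 3.68, 2.64, 2.52, 3.68 and 3.32 reads per clone in DNP1 to DNP5 and 6.77, 3.19, 5.57, 4.82 and 4.02 in HuD1 to HuD5. The groups overlapped through HuD2. Relative to the other genes of the same animal this was a difference of 0.68 on the log2 scale (SE 0.26, adjusted p = 0.0786 in limma), and 0.72 (adjusted p = 0.109) without DNP2, where 0 of the 9 members and 16.7% of the 42 genes were called. With reads that name a single gene the difference was 1.00 (adjusted p = 0.0376).

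The clones of the remaining IGHV5 genes were close to those of other genes in CDR3 length. The mean length was 12.2 ± 0.293 amino acids (SD, n = 10) for the remaining IGHV5 genes, 12.1 ± 0.292 for the 11 other IGHV5 genes and 11.9 ± 0.412 for the other IGHV subgroups. Against all other IGHV genes of the same animal, 0 of the 9 members passed the threshold in limma, where 26.2% of the 42 genes did, and 1 member, IGHV5S10, had an unadjusted p under 0.05, against 35.7% of the 42 genes. The differences ranged from −0.12 amino acids for IGHV5-58 to 0.32 for IGHV5-34 (adjusted p = 0.290 and 0.168 in limma). Between the antigens, 0 of the 9 members and 0% of the 42 genes passed the threshold for CDR3 length in limma, with 1 member, IGHV5S23, at an unadjusted p under 0.05, against 19% of the 42 genes. Without DNP2, 0 members and 0% of the 42 genes were called.

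**Figure D5:**
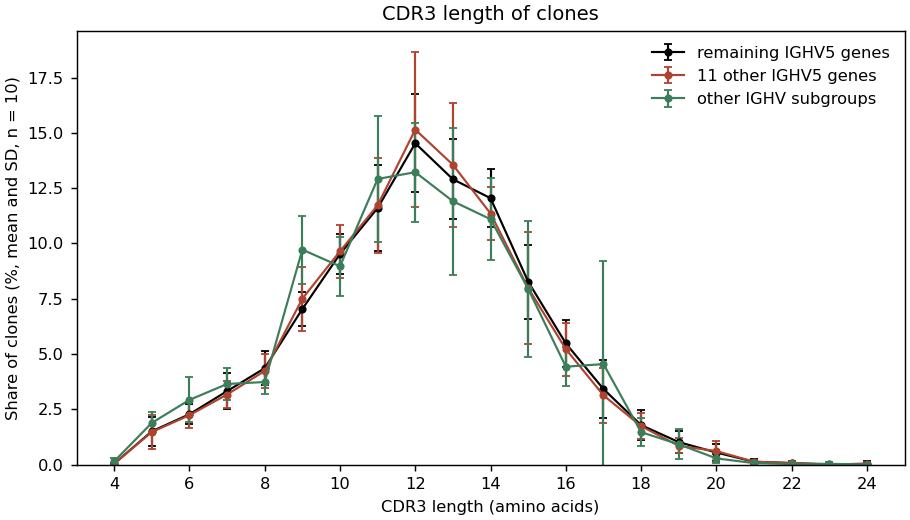
Share of clones (percent, mean and SD over 10 animals) by CDR3 length in amino acids, for the remaining IGHV5 genes, the 11 other IGHV5 genes and the other IGHV subgroups. The 3 curves lie close to each other, with mean lengths of 12.2, 12.1 and 11.9 amino acids.

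IGHJ2 was the main IGHJ gene, with 51.1% ± 2.52 (SD, n = 10) of the clones, followed by IGHJ3 with 24.3% ± 2.85, IGHJ4 with 14.3% ± 3.29 and IGHJ1 with 10.2% ± 1.35. The IGHJ3 share was 1.97 percentage points above that of the 11 other IGHV5 genes, and it was the higher one in 10 of 10 animals. Against the other IGHV subgroups it was 3.91 points above, in 9 of 10 animals, and no test was run on these shares. In the limma test of the IGHJ2 share, 0 of the 9 members passed the threshold against the other genes, where 21.4% of the 42 genes did (7.14% lower). At an unadjusted p under 0.05 there were 2 members, against 31% of the 42 genes, namely IGHV5-34 with a difference of −6.73 points and IGHV5-58 with −3.85 points (adjusted p = 0.112 and 0.148). Between the antigens, 0 of the 9 members were called, where 2.38% of the 42 genes were, and 1 member had an unadjusted p under 0.05, against 28.6% of the 42 genes. This was IGHV5-19 at −4.74 points (unadjusted p = 0.0396, adjusted p = 0.150 in limma). Without DNP2, 0 members and 4.76% of the 42 genes were called.

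The start of CDR3, which is partly encoded by the IGHV gene, is given as a description, with no test. AT opened 28.6% of the clones of IGHV5-19 and 26.4% of those of IGHV5S10. TT opened 20.8% of the clones of IGHV5-27 and AK 19.0% of those of IGHV5-58. In IGHV5-19 the AT start ranged from 0% in HuD3 (79 clones) to 44.8% in DNP3 (125 clones), the animals with the fewest clones of this gene.

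The most abundant clones of IGHV5-25 had a different CDR3 sequence in each animal. Beyond the leading CDR3 of each tested gene and the most widely shared ones, the CDR3 sequences named here were chosen after their values were seen. In IGHV5-25, which had 37290 clones, the CDR3 with the most reads was one of 15 residues with 1743 reads in HuD1, TTYSDYATSPFAY with 1167 in HuD5, ARHWGY with 1132 in HuD4, ASLNYGGYIEEFDY with 750 in HuD3 and ARRGNSVFWNFDF with 266 in HuD2. In the DNP animals it was AKNSGYYFDY with 554 reads in DNP4, ARMFYGYSDY with 441 in DNP1, VRRGGKGLFSK with 401 in DNP5, ARSRLPGYYPFAC with 322 in DNP2 and ARHPPWWY with 179 in DNP3. These took 1.47% to 10.7% of the reads of the gene in the animal. Similar CDR3 sequences followed each other in several animals. In IGHV5S10 the leading pair was ATFEGRDA (702 reads) and TTFEGTNA (648) in DNP5, AARDGGYPY (271) and ATRDGGYPY (195) in HuD1, ATRDNNYGY (537) and ATRDNNYAY (280) in HuD4, and ATGPRILRLDWFAY (534) and ATGPRILRIDWFAY (234) in HuD5. ATRDGGYPG led in HuD3 with 530 reads, and ATSTGAY in DNP4 with 729 reads, the most of this gene in any animal. In IGHV5S13 the leading CDR3 was ARRKLYYGFDY with 1124 reads in HuD1 and TRGYVMDA with 1082 reads in HuD4, where ARGYVMDA came next with 368 reads.

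The leading CDR3 sequences of the other members took a larger part of the reads of their gene in some animals. VTHPSWFGY held 37.4% of the IGHV5S10 reads of DNP3 (522 reads), and TRIPGYPYWYFDF 45.1% of the IGHV5-46 reads of DNP3 (196 reads). TTVTEDIVELFAY held 24.8% of the IGHV5-27 reads of HuD1 (1050 reads), ARHYYYDGYWFAY 22.9% of the IGHV5-17 reads of HuD1 (909 reads) and ASWAPIAPLSTSNY 15.4% of the IGHV5-58 reads of DNP1 (990 reads). In IGHV5-19 the largest was ATSPGPNWFAY with 673 reads in DNP4, in IGHV5S14 ARGGDGYDY with 371 reads in DNP2, in IGHV5S23 ARHGIYNNYGWFAY with 351 reads in HuD1, and in IGHV5-34 ARDYGRFGY with 262 reads in HuD1. In IGHV5-46 it was KVGAQY with 282 reads in DNP5, and in IGHV5-50 AAFNYYDNLVY with 19 reads in HuD4.

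Few clones were shared between animals. Of 134699 different gene and CDR3 combinations, 1407 (1.04%) were read in at least 2 animals, of which 587 were found in HuD animals only, 391 in DNP animals only and 429 in both. The counts by antigen were not scaled to the number of clones, on average 15615 per HuD animal and 11676 per DNP animal. The shared combinations had a mean CDR3 length of 9.36 amino acids, against 12.3 for those of a single animal. Among genes with at least 1000 reads, the shared part was highest in IGHV5-25 (1.27% of 36657 combinations) and lowest in IGHV5-34 (0.255% of 1175). It was 0.690% in IGHV5S14 and 0.752% in IGHV5-46. The most widely shared was ARHNSGYFDY in IGHV5-25, with 31 reads in 7 animals (5 HuD and 2 DNP animals). Among the combinations limited to 1 antigen, those read in its 5 animals were ASRDY in IGHV5S13 (4, 8, 1, 1 and 1 reads in HuD1 to HuD5), and ARPDY in IGHV5S10, ARPDY in IGHV5S13 and ARHYYDGSYYFDY in IGHV5-25 for DNP. DNP2 contributed 1 read to each of these 3 DNP combinations. With other remaining IGHV5 genes, ARHYYDGSYYFDY also had 1 read each in HuD4 and HuD5.

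ARPDY, a CDR3 of 5 residues, was found with many genes. It had 302, 13, 14, 214 and 28 reads in the remaining IGHV5 genes of DNP1 to DNP5 and 0, 2, 3, 0 and 0 reads in those of HuD1 to HuD5. IGHV5-7, which is not among these genes, took 69.1% of its 3914 reads over all genes, and the remaining IGHV5 genes took 14.7%. ARHGIYNNYGWFAY had 453, 91, 75 and 189 reads in the remaining IGHV5 genes of HuD1 to HuD4 and 0 reads in HuD5 and in the DNP animals. Of its 1041 reads 77.6% were in the remaining IGHV5 genes, and IGHV5S23 held the most (43.7%). It was assigned to 20 IGHV genes, so that the same CDR3 was counted under several gene names. ASLNYGRYY was read in IGHV5-25 of DNP2 (11 reads) and of HuD1 to HuD5 (18, 2, 189, 2 and 64 reads), and in 0 reads of DNP1, DNP3, DNP4 and DNP5.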

How the data were processed

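The authors merged read pairs with PEAR, collapsed them by UMI with MIGEC at a minimum UMI count of 1, so that sequences read once were kept, and annotated them with High-VQuest, with versions not given in the sources used here. In the deposited files each row is a collapsed sequence, used as 1 read, and the deposited count beside it gives its sequenced copies, used as an alternative unit. The IGHV and IGHJ genes (first named), amino acid segments and productive calls were taken as deposited. Of the productive reads of the remaining IGHV5 genes 22.8% name several genes, and 2.76% name a gene outside them.

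Usage was compared with edgeR 4.0.16 (quasi-likelihood, TMM) on reads per gene, for genes with at least 100 reads, and CDR3 length, IGHJ2 share and log2 reads per clone with limma 3.58.1, for genes with at least 10 clones in each animal, as gene minus all other IGHV genes of the animal. DESeq2 1.42.0 in R 4.3.3 served as an alternative, and files were read in Python 3.11.15. P-values were adjusted over all genes tested (Benjamini-Hochberg, threshold 0.05), and both tests were tried on simulated data. Alternatives were other scalings, filters and units, a replicate block and leaving out each animal. The members, lists and tests were chosen with earlier results of these data known. Named were the 20 members of highest share (here all 16), members past a test, the leading CDR3 of each tested member and the most shared CDR3 sequences. The comparison of V segments and the overlap of shares without DNP2 were chosen after the data were seen. P-values weigh a mean difference against the spread between animals, and a shared number does not pair rats of different groups.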

Additional observations from a re-analysis of the deposited data

Results flagged for a closer look

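In groups of 5 animals, 4 of 80 sets of values (shares of 13 genes, and CDR3 length, IGHJ2 share and reads per clone of 9 genes) had an animal far from the others by Dixon's ratio, and chance flags about 1 in 20. The IGHV5S14 share of DNP2 was 1.68%, against 0.0142% for the next DNP animal. The mean CDR3 length of HuD5 was 12.6 amino acids in IGHV5-25, against 12.3 in the next HuD animal, and 12.7 in IGHV5S10, against 12.3. This was not particular to these genes. HuD5 also had the longest mean of the HuD animals in the 11 other IGHV5 genes (12.5) and in the other subgroups (12.3). The IGHJ2 share of the IGHV5S23 clones of DNP3 was 59.0%, against 51.7% in the next DNP animal, on 78 clones. No cause was tested.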

How the results depend on the processing

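With other settings, 0 members passed the usage test except with DESeq2 (1, IGHV5-41) and when an animal was left out (0 to 3 members, with 3 without DNP2). The number of all genes past the threshold, 2 in edgeR, was 14 with DESeq2, 16 with limma on log2(RPM + 10), 0 with clones, and 0 to 30 with an animal left out: 30 without DNP2 and 0 without HuD1, HuD4 or HuD5. With the replicate block it was 13, with 0 members. The numbers do not pair the animals, since deviations of same-numbered animals correlated between −0.144 and 0.289. Members without overlap were 2 without DNP2, against 1, an alternative chosen after seeing the data. The median log2 fold change of all tested genes moved from 0.13 to 0.28 with DESeq2, 0.47 without TMM and 0.39 with limma. The log2 fold change of IGHV5-17 turned to 0.083 without TMM, 0.17 with limma, 0.073 with no filter and 0.27 with a single gene named, and ranged from −0.35 to 0.16 when an animal was left out. That of IGHV5-19 turned to −0.15 with limma and −0.31 with the block (−0.23 to 0.45 with an animal left out), and that of IGHV5-50 to 0.078 without TMM (−0.56 to 0.31 with an animal left out).

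For CDR3 length against other genes, 0 members became 1 with at least 5 clones (IGHV5-50, −1.01 amino acids), 1 with clones of at least 2 reads (IGHV5-25, 0.22) and 0 to 1 with an animal left out. For the IGHJ2 share, 0 became 0 to 1 with an animal left out (IGHV5-34, −8.45 points without HuD3), and between the antigens 1 with clones of at least 2 reads (IGHV5-19, −8.65 points). For reads per clone between the antigens, 0 became 1 with a single gene named (IGHV5-25). Members past the threshold for reads per clone were 7 to 8 with an animal left out, which also changes the genes tested. There IGHV5S10 lost its call without DNP1, DNP2, DNP3, DNP4, HuD1, HuD3 or HuD5 and IGHV5S13 without HuD3. Causes were not tested. Depth limits the rare genes, most in DNP3.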
